A study of Mus musculus with 4 samples.

Results

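The natriuretic peptide system comprised 7 genes of the 19938 tested: the peptide hormone genes Nppa, Nppb and Nppc, the receptor genes Npr1, Npr2 and Npr3, and the convertase gene Corin. Each was measured by 1 probe set that the platform's annotation pairs with that symbol alone, so all 7 members were covered by 7 probe sets. They were chosen by family membership, with the irradiated against control differences of these arrays, including that of Nppb, already known. Their differences are therefore given as a description and without p-values, and counts of members by a threshold are set beside the share of all genes with nothing read from them.

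Dalton's lymphoma ascites (DLA) cells are mouse tumour cells kept by transplantation, which multiply unattached in the peritoneal fluid of the host. In the irradiated group, male Swiss albino mice aged 4 to 5 months carried transplanted DLA cells and received a whole-body dose of 2 Gy of electrons on day 8 after transplantation, and the ascites cells were collected 48 h later. In the control group, mice of the same strain, sex and age carried the same cells and were not irradiated. The day of collection of control cells was not recorded here. A difference in time after transplantation therefore cannot be told apart from irradiation. Each group had 2 one-colour arrays, labelled as biological replicates 1 and 2. The labels do not say how many mice made up a replicate. Where replicates were not separate animals, the p-values below cover technical spread only. The collected cells are a bulk sample, in which fewer cells of a type and less RNA per cell cannot be told apart.

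As background, atrial natriuretic peptide (from Nppa) and brain natriuretic peptide (from Nppb) are hormones best known from heart muscle cells, where stretch induces them, and C-type natriuretic peptide (from Nppc) acts locally in vessels and growth plates. Npr1 encodes the guanylyl cyclase receptor of the atrial and brain peptides and Npr2 that of the C-type peptide, both of which make the second messenger cGMP. Npr3 encodes the clearance receptor, which removes all of these peptides, and Corin encodes the transmembrane protease that cleaves the precursor of the atrial peptide.

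Values are log2 intensities after robust multi-array averaging (RMA), and array medians lay between 6.43 and 6.46. The irradiated arrays stood further apart than the control arrays, with an SD of the difference between replicates of 0.362 in irradiated and 0.167 in control cells over all tested genes, and 230 genes lay at least 2-fold apart between irradiated replicates, against 4 between control replicates. The number of arrays limits the precision. The label of a lymphoma was set against lymphocyte markers. All 12 measured T lymphocyte markers averaged below the median level of tested genes (6.68), as did 7 of 12 pan-leukocyte markers. Of all 19938 tested genes, 9961 averaged below that median, so 7 of 12 lay near the share of all genes. No list of B lymphocyte markers was read. Ptprc, the pan-leukocyte antigen CD45, measured 5.57 and 5.49 in irradiated and 5.63 and 5.64 in control cells. The leukocyte genes Lcp1, with 11.78 and 11.96 in irradiated and 11.19 and 11.30 in control cells, and Arhgdib, with 11.37 and 11.80 in irradiated and 10.91 and 10.92 in control cells, lay above that median. Of 10 measured trophoblast markers, 5 averaged below that median. The epithelial keratin Krt8, from that list, measured 13.93 and 13.30 in irradiated and 14.07 and 14.11 in control cells. These genes were picked out after their values were seen, and the cells are called DLA cells by their label alone.

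Nppb was the member that differed most, and it was higher in irradiated cells. It measured 10.03 and 9.45 on the irradiated arrays, against 7.72 and 7.87 on the control arrays. The groups did not overlap: the lower irradiated array stood 1.58 above the higher control array, against a gap of 0.58 between the irradiated replicates and 0.15 between the control replicates. The means were 9.74 ± 0.41 in irradiated and 7.80 ± 0.11 in control cells (log2, SD, n = 2 arrays each), a log2 difference of 1.95 with a standard error of 0.21, or 3.85-fold. Replicate 1 of the irradiated cells exceeded the control mean by 2.24 and replicate 2 by 1.66 on the log2 scale. Of all tested genes, 21 had a larger positive difference than Nppb.

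Nppa, whose gene lies next to Nppb on chromosome 4, did not share this difference. It measured 5.72 and 5.38 in irradiated cells, against 5.82 and 5.93 in control cells. Both irradiated arrays lay below both control arrays, by as little as 0.10 on the log2 scale. The difference was −0.33 on the log2 scale (standard error 0.15), which is 1.25-fold lower in irradiated cells, and the irradiated replicates lay 0.34 apart.

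Nppc, the gene of the C-type peptide, measured 5.95 and 5.46 in irradiated and 5.84 and 5.75 in control cells. The irradiated arrays lay on either side of the control arrays, so the groups overlapped, and the log2 difference was −0.09 (standard error 0.19).

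Corin measured 6.03 and 6.0 in irradiated and 5.90 and 6.04 in control cells. The groups overlapped, with a log2 difference of 0.05 and a standard error of 0.12.

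The 3 receptor genes had overlapping groups and small differences. Npr1 measured 6.24 and 5.98 in irradiated and 6.25 and 6.22 in control cells, a log2 difference of −0.13 with a standard error of 0.14. Npr2 measured 8.54 and 8.69 in irradiated and 8.78 and 8.64 in control cells, a log2 difference of −0.10 with a standard error of 0.13. Npr3 measured 5.20 and 5.44 in irradiated and 5.29 and 5.43 in control cells, a log2 difference of −0.04 with a standard error of 0.14. Each of the 3 differences was smaller than its standard error.

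**Figure D1:**
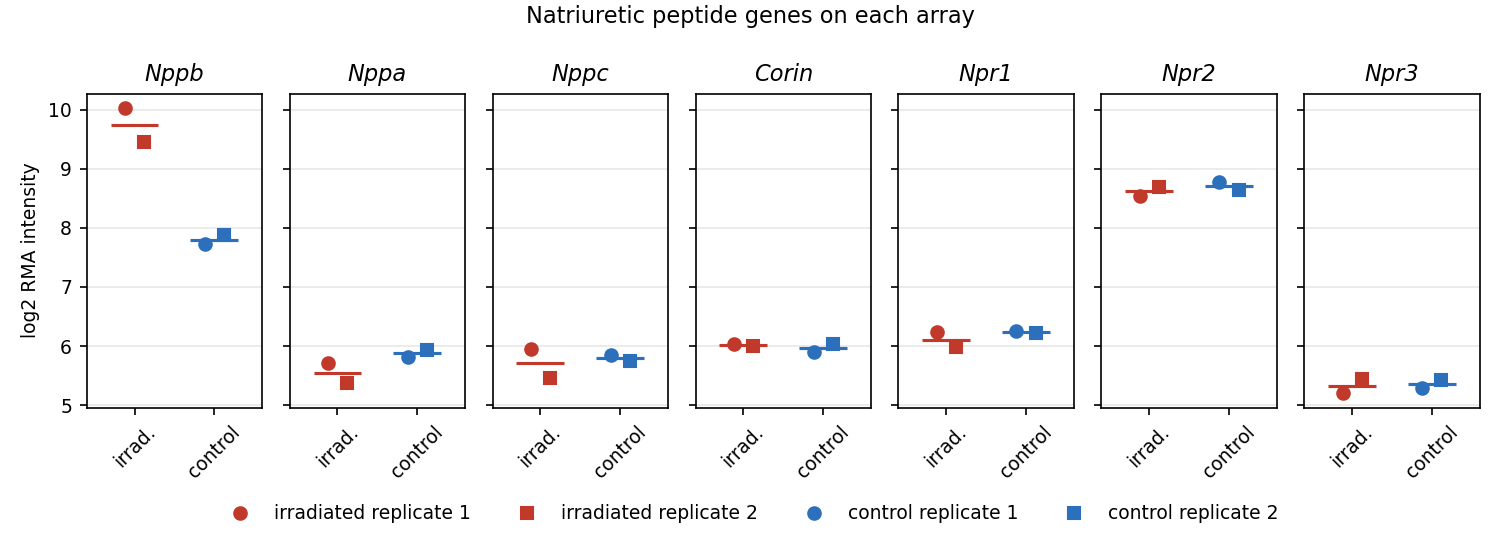
Log2 RMA intensity of the 7 natriuretic peptide genes on each array, with irradiated arrays in red and control arrays in blue, circles for replicate 1, squares for replicate 2 and lines for group means. Nppb lies at 10.03 and 9.45 in irradiated cells, against 7.72 and 7.87 in control cells, and the other 6 genes differ by at most 0.325 between group means.

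Counted together, 2 of the 7 members had a positive and 5 a negative difference, with a median of −0.09, against a median of −0.03 over all tested genes. Groups that did not overlap were seen for 2 of 7 members, 1 higher (Nppb) and 1 lower (Nppa). Over all tested genes this share was 41.7%, made up of 17.8% higher and 23.9% lower in irradiated cells. A gene was called by a second rule where limma's unadjusted p was under 0.05 and the groups differed at least 1.5-fold. That rule called 1 member higher (Nppb) and 0 lower, against 2.37% of all tested genes, 1.70% higher and 0.672% lower. At a Benjamini-Hochberg adjusted p under 0.05 in limma, 0 members and 0.00502% of tested genes (1 gene) passed. The members were chosen with this contrast known, so nothing is read from these counts.

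The low level of most members limits what their values can show. The means of Nppa, Nppc, Npr1, Npr3 and Corin over all 4 arrays, between 5.34 and 6.17, lay below the median of tested genes. Those of Nppb and Npr2, 8.77 and 8.66, lay above it. RMA compresses the differences of dim probe sets, and the deposited table gives no detection call.

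**Figure D2:**
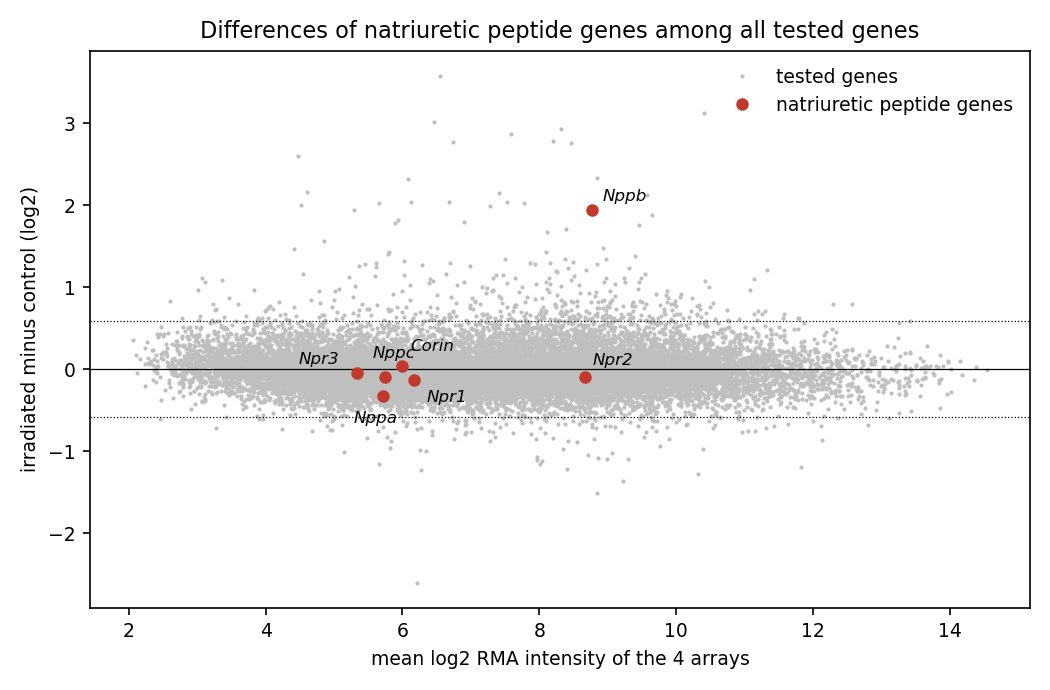
Irradiated minus control log2 difference against the mean log2 RMA intensity of the 4 arrays, for all 19938 tested genes in grey and the 7 natriuretic peptide genes in red, with dotted lines at 1.5-fold. Nppb lies at 1.95 on the vertical axis, and the other 6 members lie between −0.325 and 0.045, inside the dotted lines.

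The regulatory sequence next to the starts of Nppb and Nppa is shown because the neighbouring genes differed from each other in these cells. Each window runs from 250 bases before to 50 bases after a transcription start in RefSeq (build GRCm38.p6), on the plus strand of chromosome 4, with matches to the searched motifs in capitals. The Nppb window is chr4:147985650-147985949 and the Nppa window is chr4:148000472-148000771. The sequences, 5′ to 3′, are as follows.
Nppb: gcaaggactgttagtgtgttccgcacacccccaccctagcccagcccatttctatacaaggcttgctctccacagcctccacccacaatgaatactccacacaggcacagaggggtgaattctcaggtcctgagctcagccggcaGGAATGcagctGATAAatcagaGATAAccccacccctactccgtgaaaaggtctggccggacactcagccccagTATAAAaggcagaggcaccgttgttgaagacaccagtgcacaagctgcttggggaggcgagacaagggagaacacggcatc
Nppa: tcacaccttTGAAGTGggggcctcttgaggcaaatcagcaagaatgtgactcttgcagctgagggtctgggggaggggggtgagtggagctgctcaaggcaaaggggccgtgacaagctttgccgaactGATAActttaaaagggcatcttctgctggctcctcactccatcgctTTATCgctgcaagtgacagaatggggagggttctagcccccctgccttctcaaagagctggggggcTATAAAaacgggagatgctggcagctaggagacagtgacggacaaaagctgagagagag

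Both strands were searched for 6 motifs: GATAA of GATA factors, CATTCC of TEAD factors (the M-CAT element, GGAATG on the other strand), TGANTCA of AP-1, TNAAGTG of NKX2-5, TATAAA (the TATA box) and the CArG box of serum response factor. The capitals of the Nppb window mark an M-CAT match on the minus strand, 105 to 100 bases before the start. They also mark GATA matches at 94 to 90 and 83 to 79 bases, and a TATA box at 31 to 26 bases. The capitals of the Nppa window mark an NKX2-5 match 241 to 235 bases before the start. GATA matches lie at 121 to 117 and, on the minus strand, 75 to 71 bases. The TATAAA word lies 9 to 4 bases before the annotated start of Nppa, nearer than in Nppb, and is given as a word only. No 2 matches in either window overlapped. Among the windows of the 7 members, the M-CAT word was found in that of Nppb alone, the GATA word in those of Nppb and Nppa, and the TATA word in those of Nppb, Nppa and Nppc. Of all 32851 RefSeq windows of this length, 25.4% held GATAA, 14.7% CATTCC, 7.81% TGANTCA, 11.5% TNAAGTG, 13.6% TATAAA and 1.63% a CArG box. A match describes letters in the window and not binding in these cells.

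The genes around Nppb did not show its difference. Of the 5 protein-coding genes on each side in RefSeq order, 9 of 10 were measured, and their log2 differences lay between −0.325 (Nppa) and 0.30 (Clcn6, a chloride transporter of endosomes) with a median of 0.00. The second rule called 0 of the 9, against 2.37% of all tested genes, so nothing is read from that count. Groups did not overlap for 5 of the 9, 3 higher and 2 lower. The shares of all tested genes were 41.7% in either direction, 17.8% higher and 23.9% lower. Plod1, a lysyl hydroxylase of collagen, measured 9.22 and 9.06 in irradiated and 9.34 and 9.33 in control cells. Clcn6 measured 7.81 and 8.08 in irradiated and 7.73 and 7.56 in control cells. Looking at the neighbours was decided after the values of Nppb and Nppa were seen.

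**Figure D3:**
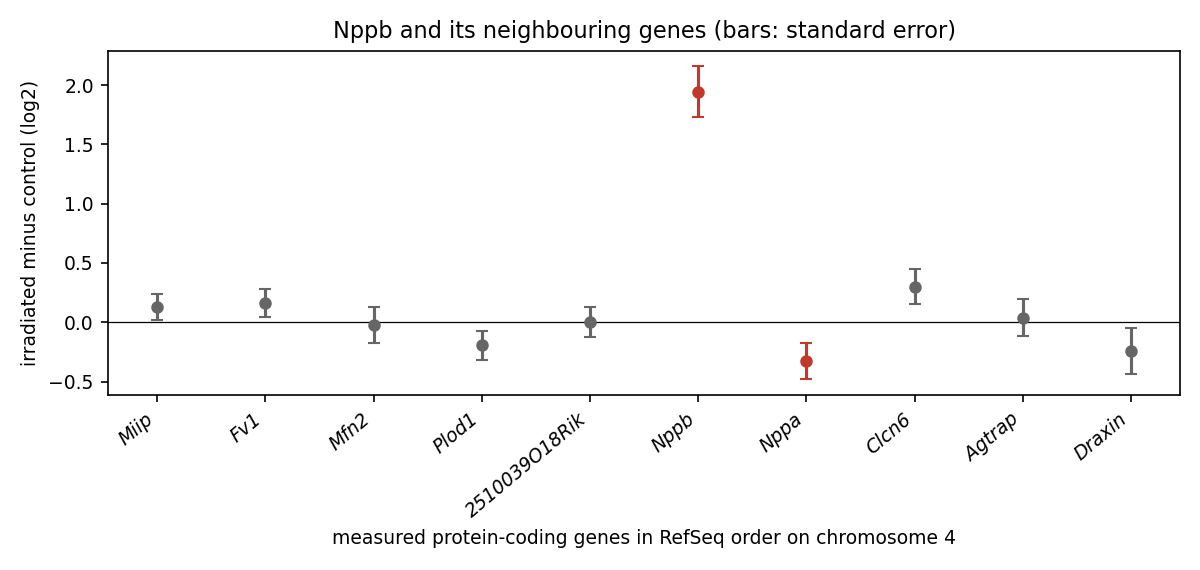
Irradiated minus control log2 difference of Nppb and the 9 measured protein-coding genes nearest to it on chromosome 4, in RefSeq order and not to genomic scale, with the limma standard error as bars and Nppb and Nppa in red. Nppb lies at 1.95, and its neighbours lie between −0.325 and 0.30.

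The genes whose 4 values were most like those of Nppb were ranked by the Euclidean distance between log2 profiles, each set to its own control mean. The nearest was Ly6f, of the Ly6 surface antigen family, at a distance of 0.156. It measured 8.78 and 8.32 in irradiated and 6.42 and 6.61 in control cells. Like Nppb, it was higher in irradiated replicate 1 than in irradiated replicate 2, which is part of the profile used for the ranking. Fermt1, an integrin activator of epithelial cells, followed at 0.364, with 9.48 and 9.02 in irradiated and 7.54 and 7.55 in control cells. Phf19, a Polycomb-associated protein, lay at 0.646, Tmem176b at 0.702 and Efcab3 at 0.782. With 4 arrays, of which the irradiated pair carried the difference, this likeness is a description of these samples.

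**Figure D4:**
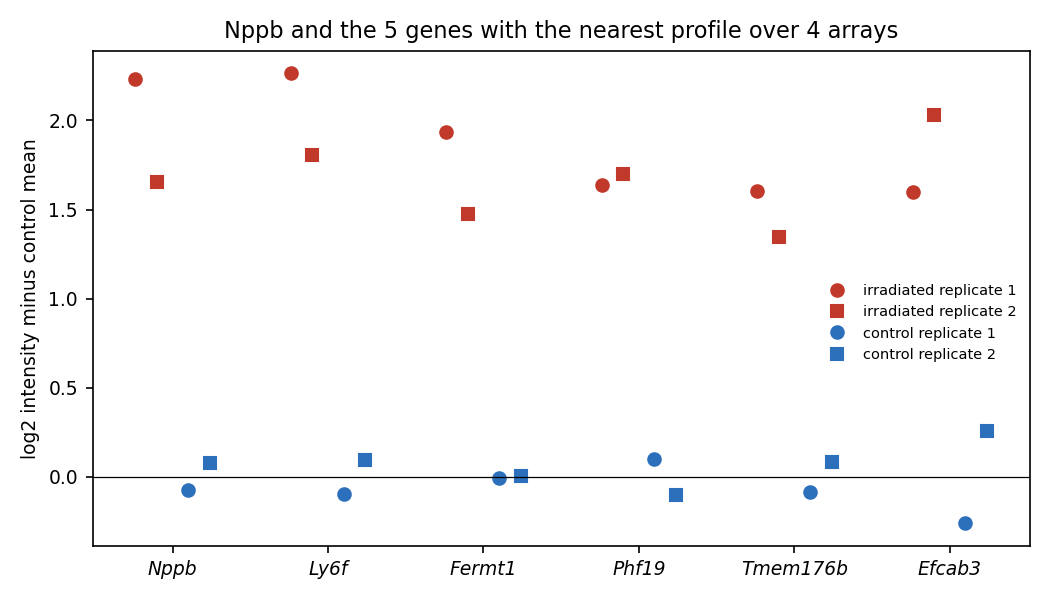
Log2 intensity minus the control mean of Nppb and the 5 genes nearest to it over 4 arrays, with irradiated arrays in red, control arrays in blue, circles for replicate 1 and squares for replicate 2. Nppb lies 2.24 and 1.66 above its control mean in irradiated replicates 1 and 2, and the irradiated replicates keep this order in Ly6f, Fermt1 and Tmem176b and not in Phf19 and Efcab3. The order was part of the profile by which the 5 genes were chosen.

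Other genes of the pathway were taken from 6 lists written with earlier results of these arrays known, which held 143 measured genes besides the members. In limma, 7 were called higher and 4 lower by the second rule, which is 7.69% of them, against 2.37% of all tested genes. By direction, 1.70% of all tested genes were called higher and 0.672% lower. These shares stand beside the counts of each list below. The groups did not overlap for 60 of the 143 (42.0%), against 41.7% of all tested genes. Their median log2 difference was −0.025, against −0.03 over all tested genes. After adjustment over all tested genes 0 passed, and the limma adjusted p of the 11 called genes ran from 0.193 to 0.442. Leaving out an array leaves 1 array in a group, so the spread then comes from the other group alone. Calls from such fits are therefore not read, and only log2 differences are given for them.

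Among genes that process or clear the peptides, Mme was higher in irradiated cells. Of 10 measured, 1 was called higher, 0 lower and 9 were not called, with a median of 0.01. Mme, which encodes neprilysin, the membrane protease that degrades natriuretic peptides, measured 9.06 and 8.92 in irradiated and 8.35 and 8.36 in control cells. This was 0.64 on the log2 scale (standard error 0.12), or 1.55-fold higher in irradiated cells (limma adjusted p = 0.294), and 0.565, below 1.5-fold, without irradiated replicate 1. Furin, the convertase of the brain and C-type precursors, measured 9.59 and 9.58 in irradiated and 9.68 and 9.60 in control cells. The secreted Npr3 ligand osteocrin (Ostn) measured 4.27 and 4.18 in irradiated and 4.27 and 4.21 in control cells. Furin and Ostn were singled out for their roles after their values were seen. The other 3 genes with the smallest p were Ece1 (−0.27), Dpp4 (−0.24) and Ide (0.10 on the log2 scale), and none was called.

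Downstream of the receptors, 2 of 33 measured genes of cGMP signalling were called higher, 0 lower and 31 were not called, with a median of 0.05. Nos2, the inducible nitric oxide synthase, whose product activates the soluble guanylyl cyclase, measured 6.44 and 7.39 in irradiated and 6.08 and 5.65 in control cells. The irradiated replicates lay further apart than the lower of them lay above the controls, and its log2 difference was 1.05 (standard error 0.33, limma adjusted p = 0.442). The call of Nos2 was lost with the replicate block. Its log2 difference ran from 0.575 without irradiated replicate 2 to 1.525 without irradiated replicate 1. Abcc5, an exporter of cyclic nucleotides, measured 7.51 and 7.82 in irradiated and 7.01 and 7.14 in control cells (log2 difference 0.59, limma adjusted p = 0.38), a call lost with quantile normalization. Its log2 difference ran from 0.435, below 1.5-fold, without irradiated replicate 2 to 0.745 without irradiated replicate 1. Rgs2, a target of cGMP-dependent kinase, and Gucy1a2, a subunit of soluble guanylyl cyclase, were 0.53 and 0.31 higher on the log2 scale and were not called. The cGMP-dependent kinase gene Prkg1 measured 5.20 and 5.46 in irradiated and 5.19 and 5.18 in control cells, and was singled out for its role after its values were seen.

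Regulators of Nppa and Nppb transcription gave 0 calls among 31 measured genes, with a median of −0.05 on the log2 scale. By the smallest p, the leading genes were Tead1, of the TEAD family that binds M-CAT elements, with 10.35 and 10.24 in irradiated and 9.77 and 9.76 in control cells, the transcriptional activator Camta2 (0.55), the GATA cofactor Zfpm2 (0.41) and the serum response cofactor Myocd (−0.33). The log2 difference of Tead1 was 0.53, or 1.44-fold, short of the 1.5-fold threshold (limma adjusted p = 0.342). Of the other TEAD genes, Tead4 had a log2 difference of −0.315 (standard error 0.132), opposite to Tead1, and was not called. Tead2 (−0.025) and Tead3 (−0.075) differed by less than their standard errors, 0.127 and 0.17. Tead2, Tead3 and Tead4 were added after their values were seen, and a part of TEAD factors in the Nppb difference was not tested. The cardiac factor gene Gata4 measured 6.43 and 6.30 in irradiated and 6.33 and 6.63 in control cells. Nkx2-5 measured 7.30 and 7.10 in irradiated and 7.19 and 7.49 in control cells. Gata4 and Nkx2-5 were singled out for their roles after their values were seen, and their groups overlapped.

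Among 17 measured signals and receptors known to act on Nppb, 2 were called higher, 0 lower and 15 were not called, with a median of −0.09. Lif, a cytokine of the interleukin 6 family that induces hypertrophy of heart muscle cells, measured 10.32 and 9.54 in irradiated and 8.83 and 8.56 in control cells. This was 1.24 on the log2 scale (standard error 0.27), or 2.35-fold higher in irradiated cells (limma adjusted p = 0.347). The irradiated values of Lif were more widely spaced than the lower of them was from the higher control value. Keeping irradiated replicate 2 alone put its log2 difference at 0.845, and keeping irradiated replicate 1 alone put it at 1.625. Il1a, which encodes interleukin 1 alpha, measured 9.0 and 9.53 in irradiated and 8.39 and 8.35 in control cells (log2 difference 0.90, limma adjusted p = 0.343). Tgfb1 (0.52) and Edn2 (−0.25) were not called. Edn1, the gene of endothelin 1, measured 6.99 and 6.63 in irradiated and 7.0 and 7.11 in control cells. Il1b measured 6.28 and 5.93 in irradiated and 6.32 and 6.47 in control cells, and it and Edn1 were singled out after their values were seen.

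Of 20 measured genes of stretch and of the fetal heart programme, which accompany Nppb in loaded heart muscle, 0 were called higher, 3 lower and 17 were not called, with a median of −0.06. Ankrd1, a cardiac ankyrin repeat protein, measured 8.83 and 8.66 in irradiated and 9.81 and 9.87 in control cells, a log2 difference of −1.095 (standard error 0.12, limma adjusted p = 0.193). The matricellular genes Ccn2 and Ccn1 had log2 differences of −1.08 and −1.05 (limma adjusted p = 0.193 and 0.286). Both irradiated arrays lay below both control arrays for these 3 genes, opposite to Nppb. In the whole list of 20, groups did not overlap for 8 genes lower and 2 higher in irradiated cells. The shares of all tested genes were 23.9% lower and 17.8% higher. Actc1, the cardiac actin, had a log2 difference of −0.37 and was not called. For these 20 genes the sign of the median depended on which irradiated array was kept. It came to −0.22 when only irradiated replicate 2 was kept, and to 0.04 when only irradiated replicate 1 was kept.

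Other vasoactive peptides and their receptors had calls in both directions, with 2 of 32 measured genes called higher, 1 lower and 29 not called, and a median of −0.05 on the log2 scale. Adm, which encodes the vasodilator adrenomedullin, measured 8.21 and 7.37 in irradiated and 9.01 and 9.01 in control cells. Its log2 difference was −1.22 (limma adjusted p = 0.358). The irradiated values of Adm were more widely spaced than the higher of them was from the control values. Keeping irradiated replicate 2 alone put its log2 difference at −1.64, and keeping irradiated replicate 1 alone put it at −0.8. Bdkrb2, the constitutive bradykinin receptor, measured 8.70 and 8.64 in irradiated and 7.99 and 7.94 in control cells (log2 difference 0.71, limma adjusted p = 0.257). Grpr, the receptor of gastrin-releasing peptide, measured 6.37 and 7.92 in irradiated and 5.07 and 5.13 in control cells. Its irradiated replicates lay further apart than the lower of them lay above the controls (log2 difference 2.05, limma adjusted p = 0.366). Leaving out irradiated replicate 2 gave 1.27 and leaving out irradiated replicate 1 gave 2.82. Calcr, the calcitonin receptor, had a difference of −0.27 and was not called.

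**Figure D5:**
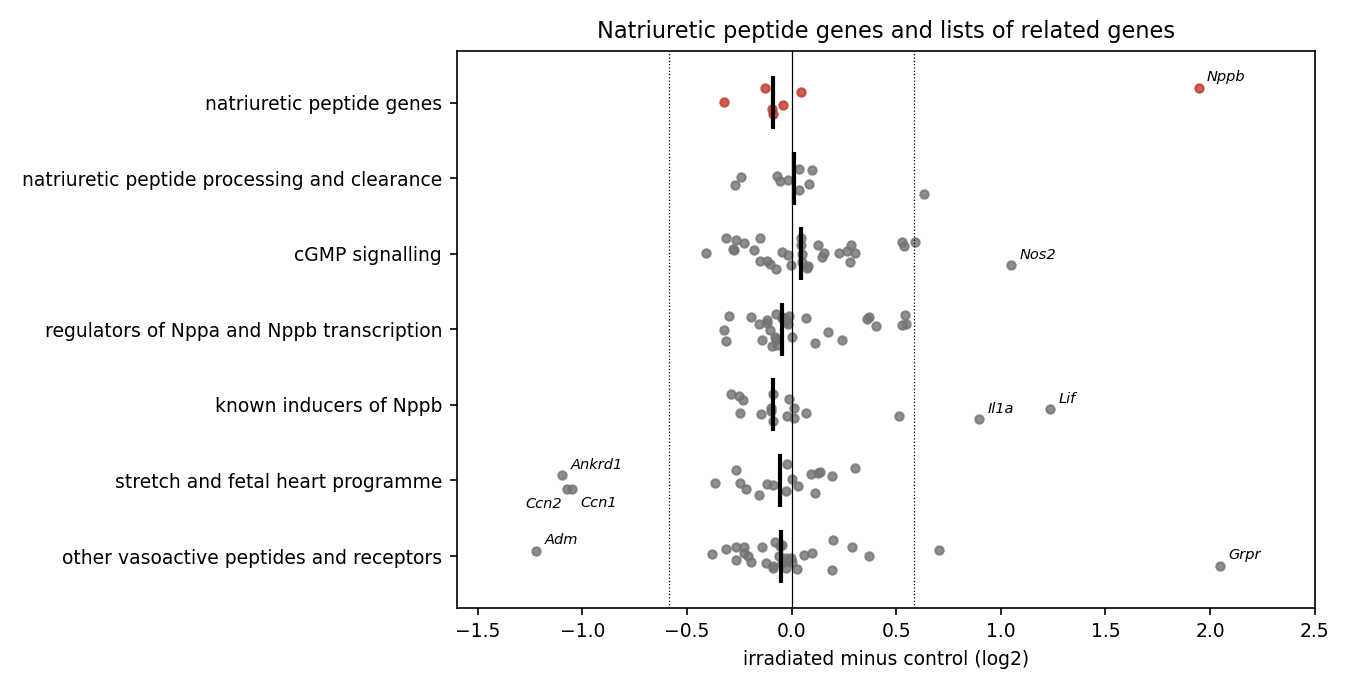
Irradiated minus control log2 difference of the 7 natriuretic peptide genes (red) and of the measured genes of 6 related lists (grey), with black bars at the median of each list, dotted lines at 1.5-fold and names for genes at least 0.85 from 0. The list medians lie between −0.09 and 0.05, and Nppb, Grpr, Lif, Nos2 and Il1a lie above 0.85 while Ankrd1, Ccn2, Ccn1 and Adm lie below −0.85.

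Markers of cell types that carry natriuretic peptides or their receptors elsewhere were read on the same arrays. The second rule called 1.70% of all tested genes higher and 0.672% lower. Nothing is read from single calls in marker lists of this size. Of 12 cardiomyocyte markers 0 were called, and their mean log2 level was 6.24 and 6.05 in irradiated and 6.16 and 6.22 in control cells. The defining cardiac myosin gene Myh6 measured 5.60 and 5.41 in irradiated and 5.57 and 5.53 in control cells. Of 12 endothelial and 12 smooth muscle and fibroblast markers 0 were called, with mean levels of 5.91 and 5.89 in irradiated and 5.93 and 5.95 in control cells for endothelium, and 6.20 and 6.09 in irradiated and 6.16 and 6.17 in control cells for smooth muscle and fibroblasts. Of 10 mesothelial markers 1 was called higher (Bnc1) and 1 lower (Krt19), with mean levels of 7.01 and 6.67 in irradiated and 6.88 and 6.92 in control cells.

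Markers of blood cells gave calls in both directions. Of 12 neutrophil markers 2 were called higher and 7 lower, against 1.70% and 0.672% of all tested genes, with a median log2 difference of −0.73 and mean log2 levels of 6.28 and 6.21 in irradiated and 6.56 and 6.68 in control cells. Those called higher were the surface antigen gene Ly6g, by 3.12 on the log2 scale and the 1 gene past the adjusted threshold (limma adjusted p = 0.0117), and the gelatinase Mmp9, by 1.29. Those called lower were Retnlg (−2.60), Il1r2 (−1.23), Cxcr2 (−1.16), Mmp8 (−1.01), S100a9 (−1.0), S100a8 (−0.80) and Csf3r (−0.66). Of 12 macrophage markers 1 was called higher (Mrc1) and 0 lower, with mean levels of 6.20 and 6.13 in irradiated and 6.10 and 6.11 in control cells. Of 7 measured erythroid markers 1 was called lower (Alas2), with mean levels of 6.25 and 6.29 in irradiated and 6.28 and 6.32 in control cells. Of 12 pan-leukocyte markers 2 were called higher (Lcp1 and Arhgdib) and 2 lower (Srgn and Cd52), with mean levels of 7.20 and 7.10 in irradiated and 7.25 and 7.33 in control cells. Of 12 T lymphocyte markers 0 were called. Of 10 measured trophoblast markers 1 was called lower (Krt18), with mean levels of 7.83 and 7.66 in irradiated and 7.83 and 7.85 in control cells. The part of any of these cell types in the Nppb difference was not tested.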

How the data were processed

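Gene expression was measured in DLA cells on 4 arrays, 2 from irradiated and 2 from control mice, from 300 ng of total RNA labelled with biotin, per the labels. The authors deposited log2 intensities of 35556 probe sets, rounded to 2 decimals and made with RMA, per the submitters' processing notes. The sources used here name no version, genome build or probe annotation. RMA gives all arrays a common distribution and so hides a shift of the whole transcriptome.

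Gene names came from the annotation of the platform and were updated through RefSeq (GRCm38.p6, names and promoter windows only): 21789 had 1 symbol, 1621 several and 12146 were not listed. Of a gene's probe sets with 1 symbol the brightest over all arrays was used, which left 19938 genes. Groups were compared with limma 3.58.1 in R 4.3.3 (lmFit and eBayes, two-sided, Benjamini-Hochberg over all genes; 2 residual and 3.48 prior degrees of freedom), and the script was tested on simulated data.

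The members and lists were chosen with earlier results of these data known. Named were all members, up to 4 genes with the smallest p of each list, every called gene of the 6 related lists, the 5 genes nearest to Nppb and defining or called markers; genes of the related lists beyond this rule are marked as chosen after their values were seen. Alternatives were filters on dim genes, other normalizations, other uses of probe sets, a replicate block, other eBayes settings, a 2-fold threshold and each array left out. The arrays carried no batch information used here.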

Additional observations from a re-analysis of the deposited data

How the results depend on the processing

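The filters, other uses of probe sets, replicate block and eBayes settings cannot change the difference of a member with 1 probe set. Only the other normalizations and leaving out an array can. Over these the log2 difference of Nppb lay between 1.66 and 2.24, lowest without irradiated replicate 1 and highest without irradiated replicate 2. That of Nppa stayed negative (−0.50 to −0.16), as did that of Npr2 (−0.17 to −0.02). The differences of Nppc (−0.34 to 0.16), Npr1 (−0.26 to 0.01), Npr3 (−0.16 to 0.08) and Corin (−0.03 to 0.12) took both signs when single arrays were left out. The family median was 0.925 among genes at or above the median level, a filter that left 2 members, Nppb and Npr2, and ran from −0.135 to 0.005 with an array left out.

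The count of genes past the adjusted threshold in limma, 1 on all arrays, was 0 for every row of the table and with the replicate block (2726 rows and 1705 genes at an unadjusted p under 0.05). No count is given with an array left out, where the spread comes from 1 group alone. Genes called by unadjusted p and 1.5-fold, 473 on all arrays, numbered 1060 for every row of the table, where more rows were tested, 91 at 2-fold, and 315 (without control replicate 1) to 1558 (without irradiated replicate 1) with an array left out. For the 143 related genes the count of 11 became 7 at 2-fold and ran from 8 (without control replicate 1) to 18 (without irradiated replicate 1), and 10 were called with the replicate block, which lost Nos2. The block pairs arrays by their replicate number, which the labels do not tie to a shared litter or day; the deviations of same-numbered arrays correlated at 0.068 over genes, and the block changed the genome-wide count of 473 to 476. The difference of Dpp4, −0.24 on all arrays, ran from −0.49 without irradiated replicate 1 to 0.01 without irradiated replicate 2.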
